A study of Mus musculus with 68 samples.

Results

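The nuclear genes of respiratory complex III, cytochrome c, complex IV and mitochondrial ATP synthase were examined in single dopamine (DA) neurons of the ventral tegmental area (VTA). Members were taken by name, under a rule chosen with earlier results of these data known. They were every gene of the deposited table whose symbol begins with Uqcr, Cox4 to Cox8 or Atp5, together with Cyc1 and Cycs. This gave 47 of 36172 genes, of which 9 belonged to complex III, 1 was cytochrome c, 18 carried complex IV names and 19 carried ATP synthase names. The names take in 2 genes that the table lists as pseudogenes (Atp5l2 and Atp5l-ps1) and 3 genes that encode no subunit proper (Atp5s, Atp5sl and the supercomplex factor Cox7a2l).

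The table came from Patch-seq, in which the cytoplasm and nucleus of a neuron are drawn into the recording pipette and its RNA is sequenced. It held 68 neurons of 12-month-old mice, 33 from 3xTg mice, homozygous for transgenes that include APP Swe and tau P301L, and 35 from WT mice, a separately bred line of the same mixed background, with males and females pooled. The study had kept cells with transcripts of Th, Slc6a3 and Slc18a2 and, per its methods, without Pvalb, Tmem119, P2ry12 or Aldh1l1. In the deposited counts, 5 3xTg and 5 WT cells nonetheless had a count of Pvalb (1 and 2 cells), Tmem119 (0 and 1) or P2ry12 (4 and 3), and no cell had one of Aldh1l1. No mouse is named in the labels. Each genotype was therefore 1 sample, no test between genotypes was made, and SDs are spreads over cells and not over animals.

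Complexes III and IV pass electrons from ubiquinol through cytochrome c to oxygen and pump protons across the inner mitochondrial membrane, and ATP synthase uses the proton gradient to make ATP. Most subunits are encoded in the nucleus and assembled with a few that are encoded in mitochondrial DNA. DA neurons of the midbrain fire without synaptic drive and carry long branched axons, and are known for a high demand on mitochondrial ATP.

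The total count of a cell ranged from 492505 to 1678624, with a median of 1194457 in 3xTg and 982390 in WT. A gene was called expressed where 80% or more of the cells of a genotype reached a normalized count of 1, and 3988 genes were. All 4 DA markers (Th, Slc6a3, Slc18a2 and Ddc) had a count in each of the 68 cells, and their summed level ranged from 6681 to 33261 CPM (counts per 1000000) in 3xTg and from 4635 to 25803 CPM in WT. Of the other lists, 1 of 3 endothelial, 4 of 5 astrocyte and 5 of 5 microglial markers had a count in some cell, with median summed levels of 0, 0 and 24.1 CPM in 3xTg and 0, 0 and 25.4 CPM in WT. Aldh1l1, Cldn5 and Pecam1 were at 0 in every cell, while the highest sums were 3864 CPM in 3xTg and 2664 CPM in WT for microglia and 272 and 2410 CPM for astrocytes. The 5 oligodendrocyte markers had medians of 35.2 CPM in 3xTg and 43.6 CPM in WT and maxima of 583 and 2540 CPM. Sums above 500 CPM were more frequent in WT, with 8 WT cells and 1 3xTg cell for microglial, 3 and 0 for astrocyte and 6 and 2 for oligodendrocyte markers. The label numbers of the cells fall into runs of 1 genotype. The first runs are WT 1 to 22 (17 cells) and 3xTg 24 to 55 (21), the second are WT 57 to 74 (15) and 3xTg 76 to 92 (12), and 3 further cells are WT 94 to 96. The meaning of these numbers is not stated.

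Sequences are shown first for the 3 genes of the c subunit of ATP synthase, because together they illustrate how separate genes of this group supply one protein. The c subunit forms the ring in the membrane that turns as protons pass. The last 228 bases of the coding sequences (GENCODE transcripts, GRCm38), 75 codons and the stop, are given from 5′ to 3′, with capitals at the 58 positions that are not the same in all 3 genes. The genes lie on chromosome 11 (Atp5g1, 96072793 to 96075694), chromosome 15 (Atp5g2, 102662868 to 102671047) and chromosome 2 (Atp5g3, 73908450 to 73911294), all on the minus strand in mm10.
Atp5g1: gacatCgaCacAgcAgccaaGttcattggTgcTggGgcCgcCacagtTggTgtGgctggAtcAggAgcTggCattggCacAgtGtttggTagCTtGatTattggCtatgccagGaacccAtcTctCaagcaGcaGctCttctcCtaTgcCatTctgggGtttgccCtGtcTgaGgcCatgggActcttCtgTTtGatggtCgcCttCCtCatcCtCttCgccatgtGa
Atp5g2: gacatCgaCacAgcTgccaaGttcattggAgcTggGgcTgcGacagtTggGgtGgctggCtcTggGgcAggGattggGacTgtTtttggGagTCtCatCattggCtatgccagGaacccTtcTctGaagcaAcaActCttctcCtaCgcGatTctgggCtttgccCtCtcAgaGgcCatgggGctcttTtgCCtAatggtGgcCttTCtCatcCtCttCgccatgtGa
Atp5g3: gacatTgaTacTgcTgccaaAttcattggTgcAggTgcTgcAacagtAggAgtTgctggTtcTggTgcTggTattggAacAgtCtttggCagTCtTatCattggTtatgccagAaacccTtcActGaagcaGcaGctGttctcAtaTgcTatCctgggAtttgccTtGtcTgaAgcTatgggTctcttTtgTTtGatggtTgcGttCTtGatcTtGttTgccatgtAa

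All 75 codons specified the same residue in the 3 genes, while only 23 were spelled alike. Over these bases the genes were 85.1% (Atp5g1 and Atp5g2), 79.8% (Atp5g1 and Atp5g3) and 78.5% (Atp5g2 and Atp5g3) identical, with no run of identical bases longer than 21. All these identities are below the 90% that the authors' alignment required, but the counts of Atp5g1, Atp5g2 and Atp5g3 were not whole in 100%, 90.2% and 98.5% of the cells with a count. How reads were divided is not stated. Upstream of this stretch, in the part that encodes the targeting sequence removed on import, identity without gaps was 31.1% to 39.4%.

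The 3 genes contributed unequally to the counts, which are not corrected for length. Atp5g1 gave 57.3% of the summed c subunit counts in 3xTg (95% Clopper-Pearson interval 56.8% to 57.7%) and 53.3% in WT (52.8% to 53.8%). Atp5g3 gave 35.3% in 3xTg and 38.9% in WT, and Atp5g2 gave 7.42% and 7.79%. Per kilobase of annotated transcript the order was another, with Atp5g3 at 576 CPM, Atp5g1 at 234 and Atp5g2 at 116 over all cells. Intervals here and throughout describe counting error alone, because amplified reads without stated molecular identifiers are not separate molecules. Atp5g2 was the single member that passed the expression filter through 3xTg cells alone, being read in 27 3xTg cells of 33 and 24 WT cells of 35. Its log2 ratio of summed CPM, 3xTg over WT, was 0.04 (95% interval −0.03 to 0.11), but the first runs of each genotype gave −0.29 and the second 0.69.

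Of the 47 members, 36 passed the expression filter. The 11 others were mainly tissue isoforms. Cox4i2 (lung isoform of subunit 4), Cox8b (heart and muscle) and Cox8c (testis) had no count in any cell, nor did both pseudogenes. Taking 3 counts as the limit that a count of 0 allows, Cox4i2 could be up to 0.0124% of the Cox4 counts in 3xTg and 0.0140% in WT. Cox6a2, the heart and muscle isoform of subunit 6a, had 36 counts in 2 WT cells and none in 3xTg. Its ubiquitous counterpart Cox6a1 had 13089 counts in 3xTg and 11923 in WT. Cox7a1 (heart and muscle) made up 0.677% of the counts of Cox7a1, Cox7a2 and Cox7a2l in 3xTg and 0.504% in WT, from 9 and 6 cells. Cox6b2 and Cox7b2, testis isoforms, were found in 3 to 4 cells of each genotype and made up 0.273% to 0.806% of the counts of their pairs. The highest share, of Cox6b2 in WT, was 0.191% without WT 20. Cyct, the testis cytochrome c outside the naming rule, had a count in 2 WT cells. Atp5s was read in 25 3xTg and 15 WT cells and Atp5sl in 21 and 18, under the filter in both genotypes.

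The isoforms that carried the counts were thus Cox4i1, Cox6a1, Cox6b1, Cox7a2, Cox7b and Cox8a, each with 99.2% or more of its set except Cox7a2. It shared its set with Cox7a2l (49.8% and 49.5% in 3xTg, 48.9% and 50.6% in WT).

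Transcripts of the 47 genes together made up 1.43% of all counts in 3xTg (524977 counts, 95% Poisson interval 523558 to 526399) and 1.28% in WT (434998 counts, 433706 to 436293). The log2 ratio of these shares was 0.16, with a counting interval of 0.16 to 0.17. Per cell the summed level ran from 4925 through a median of 15314 to 20154 CPM in 3xTg, and from 3661 through 11982 to 20557 CPM in WT. The genotypes overlapped over almost the whole range, and WT held both the lowest and the highest cell. The means were 13965 ± 3757 CPM (SD over 33 cells) and 12132 ± 4264 CPM (SD over 35 cells), so that they differed by less than either SD.

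**Figure D1:**
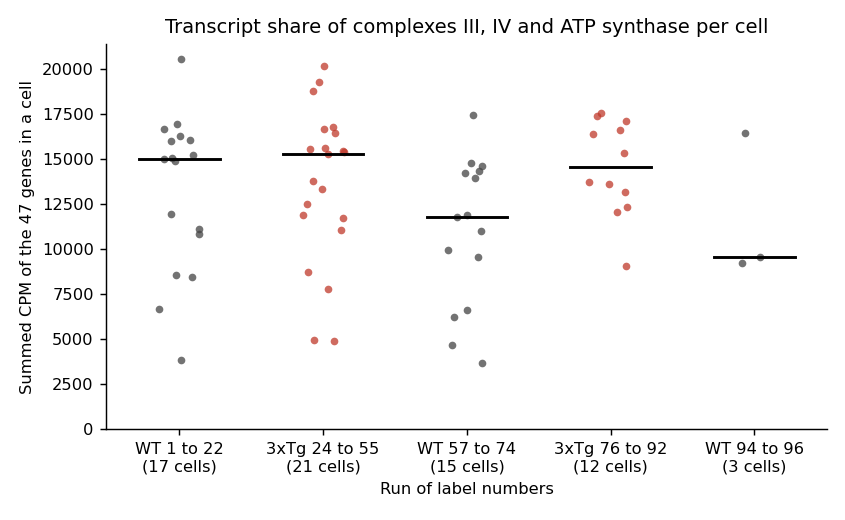
Summed level of the 47 genes in each cell (y axis, CPM, linear from 0) by run of label numbers (x axis). Points are cells, black lines are medians. The medians were 15011 CPM in WT 1 to 22, 15314 in 3xTg 24 to 55, 11813.5 in WT 57 to 74, 14546 in 3xTg 76 to 92 and 9577 in WT 94 to 96.

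The runs divide this difference. WT 1 to 22 and 3xTg 24 to 55 had nearly the same median summed level, 15011 and 15314 CPM, whereas WT 57 to 74 lay at 11813.5 CPM and 3xTg 76 to 92 at 14546 CPM. The log2 ratio of the summed share was 0.04 for the first runs and 0.32 for the second. Within WT, the median member was lower in the second run than in the first by −0.25 on the log2 scale, and 31 of 36 expressed members were lower (86.1%, beside 42.7% of all expressed genes), while the median expressed gene was higher by 0.14. Within 3xTg the median member differed by 0.03 between runs. For the median member, the step between both WT runs was thus larger than that between the genotypes over all cells.

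Over all cells, the median log2 ratio of the 36 expressed members was 0.10, beside −0.03 for all 3988 expressed genes. The ratio was above 0 for 28 of 36 members (77.8%), beside 47.9% of all expressed genes. It passed 1.5-fold upwards in 1 member (2.78%), beside 9.88% of all genes, and downwards in 0 members, beside 13%. The ratios of the members ran from −0.31 to 0.62, and those of 36 complex I genes from −0.37 to 0.41, with none of the latter past 1.5-fold in either direction. Each cell was then given equal weight, by averaging log2(normalized count + 1) over the cells of a genotype and subtracting the difference of the median gene. By this measure 23 of 36 members were above 0 and their median was 0.08. It passed 1.5-fold upwards in 8 of 36 members and downwards in 0. For each of the 36 members the difference of the mean over cells was smaller than the SD over WT cells. The shares of all expressed genes are not given here for this count or for the 8 and 0.

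**Figure D2:**
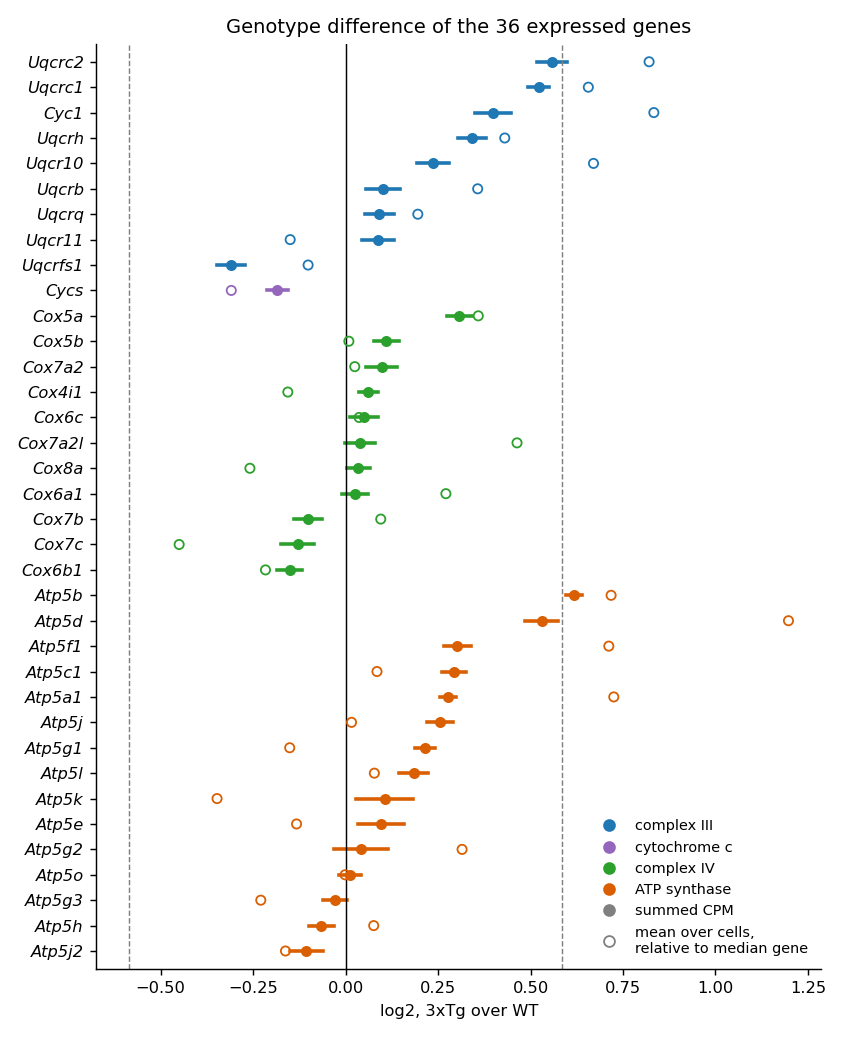
Genotype difference of each expressed gene (rows) on the log2 scale, 3xTg over WT. Filled points are ratios of summed CPM with 95% counting intervals, open points are differences of the mean over cells relative to the median gene, and dashed lines mark 1.5-fold. Only Atp5b (0.62) passes the upper line by summed CPM, and Uqcrfs1 (−0.31) is lowest.

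ATP synthase had the member past 1.5-fold. Atp5b encodes the beta subunit of the F1 head, where ATP is made, and lies on chromosome 10 from 128083307 to 128090388 on the plus strand of mm10. Its level was 8.68 CPM in the lowest, 1219 in the median and 1851 in the highest 3xTg cell, and 0, 744 and 1798 CPM in WT. The ranges overlapped almost entirely, although the median 3xTg cell lay well above the median WT cell. Its summed counts were 43538 in 3xTg (95% interval 43130 to 43949) and 26288 in WT (25971 to 26608), or 1186 and 773 CPM. The log2 ratio was 0.62 (counting interval 0.60 to 0.64, 1.53-fold), with 0.64 in the first and 0.68 in the second runs. Atp5b was the 1 member past 1.5-fold in both pairs of runs (2.78%, beside 3.76% of all expressed genes). Averaged over cells, log2(normalized count + 1) was 9.76 ± 1.76 (SD over 33 cells) in 3xTg and 8.57 ± 2.60 (SD over 35 cells) in WT. Its ratio fell short of 1.5-fold when any one of WT 6, WT 7, WT 20, WT 69 and WT 72 was left out, lowest at 0.57 without WT 7, and ranged up to 0.69 over all single cells left out. It was also short of 1.5-fold without the 5 3xTg and 5 WT cells with a count of Pvalb, Tmem119 or P2ry12 (0.52) and without cells with fewer than 5000 genes detected (0.53). Of the 5 cells left out singly, WT 6, WT 7 and WT 72 had microglial markers above 500 CPM, whose part in the ratio was not tested. It had no count in WT 6 and WT 69.

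Atp5a1, the alpha subunit that alternates with beta in the F1 head, had 37841 counts in 3xTg (37461 to 38224) and 28932 in WT (28599.6 to 29267), or 1031 and 850.4 CPM, a log2 ratio of 0.28 (0.26 to 0.30). Per cell it ran from 2.73 through 887 to 1937 CPM in 3xTg and from 0 through 827 to 2558 CPM in WT, so that the medians were close. The other F1 parts were Atp5c1 (gamma, the shaft; 0.29), Atp5d (delta; 0.53) and Atp5e (epsilon; 0.10). With each cell given equal weight, relative to the median gene, the differences were larger for Atp5d (1.197, the highest of the 36 expressed members) and Atp5a1 (0.73), beside 0.72 for Atp5b. Atp5d, with the second highest ratio of the complex, was chosen for mention after its values were seen. Its median cell held 279 CPM in 3xTg and 136 CPM in WT, with ranges of 0 to 475 and 0 to 867 CPM. Here the highest cell was WT, while the medians stood in the other order. It was read in 31 of 33 and 30 of 35 cells.

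The stalk and membrane parts of ATP synthase had ratios from −0.11 to 0.30. The peripheral stalk members, which hold the F1 head still, had log2 ratios of 0.30 (Atp5f1, b subunit), 0.25 (Atp5j, F6), 0.01 (Atp5o, the oligomycin sensitivity protein) and −0.07 (Atp5h, d subunit). Atp5g1, the third most abundant member of the complex by CPM, had 24406 counts in 3xTg (24101 to 24714) and 19482 in WT (19209 to 19758), a ratio of 0.22. Its cells ran from 45.3 through 613 to 2303 CPM in 3xTg and from 85 through 543 to 1144 CPM in WT. Atp5g3 had a ratio of −0.03, and the small membrane subunits Atp5l, Atp5k and Atp5j2 had 0.18, 0.11 and −0.11. Over the 15 expressed ATP synthase genes the median was 0.18, with 12 above 0 (80%, beside 47.9% of all expressed genes). Between the first runs this median was 0.12 and between the second 0.28.

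By summed CPM, complex III was higher in 3xTg for 8 of its 9 genes (88.9%, beside 47.9% of all expressed genes). The median log2 ratio was 0.24, with none past 1.5-fold. Between the first runs the median was 0.12 and between the second 0.31. The summed level of the complex was 2906 CPM in 3xTg and 2443 CPM in WT. Uqcrc1 and Uqcrc2, the core proteins that face the mitochondrial matrix, and Cyc1, the haem protein that passes electrons to cytochrome c, stood highest together with the hinge protein Uqcrh, and the Rieske iron-sulfur protein Uqcrfs1 stood lowest. Uqcrc1 (chromosome 9, 108936648 to 108949641, plus strand) was at 0 to 1318 CPM with a median of 647 in 3xTg cells, and at 0 to 1563 CPM with a median of 395 in WT cells. Its highest cell was WT, and the ranges overlapped. The counts were 24490 (24184 to 24799) and 15810 (15564 to 16058), the log2 ratio 0.52 (0.49 to 0.55), and 0.37 and 0.68 between the first and second runs.

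Uqcrc2, which fell just short of 1.5-fold and was picked out after its values were seen, had a ratio of 0.56 (0.60 and 0.46 between the runs) and cells from 0 through 334 to 1029 CPM in 3xTg and from 0 through 256 to 506 CPM in WT. Leaving out single cells moved it from 0.47 to 0.61, and it was 0.25 without cells with fewer than 5000 genes detected. Cyc1 (chromosome 15, 76343523 to 76345934, plus strand) had cells from 0 through 232 to 402 CPM in 3xTg and from 0 through 169 to 459 CPM in WT, with 8377 (8199 to 8558) and 5889 (5739.5 to 6041) counts. Its ratio was 0.40 (0.35 to 0.45), 0.45 and 0.27 between the runs, and 0.25 without cells with fewer than 5000 genes detected. For both genes the higher median was in 3xTg and the lowest cells of each genotype were at 0.

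Uqcrh had cells from 43.4 through 348 to 708 CPM in 3xTg and from 0 through 239.8 to 642 CPM in WT, and 12620 (12401 to 12842) against 9228 (9041 to 9418) counts, a ratio of 0.34. Uqcrfs1 differed from its complex, with 10280 (10082 to 10481) against 11815 (11603 to 12030) counts and a ratio of −0.31 (−0.35 to −0.27). Its median cells were alike, 287 CPM in 3xTg and 288 CPM in WT, while the highest were 603 and 1336 CPM. Between the first runs its ratio was −0.49 and between the second 0.33, so that its direction was not kept. The accessory subunits Uqcr10, Uqcrb, Uqcrq and Uqcr11 had ratios of 0.24, 0.10, 0.09 and 0.09.

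Cycs, the somatic cytochrome c that carries electrons between the complexes and is released in apoptosis, was lower in 3xTg by summed CPM. It had 19580 counts in 3xTg (19307 to 19856) and 20625 in WT (20344 to 20908), or 533 and 606 CPM, a log2 ratio of −0.18 (−0.21 to −0.16). The median cells were at 504 CPM in 3xTg and 503 CPM in WT, with ranges of 98.1 to 1384 and 10.2 to 1560.3 CPM. The ranges overlapped and the medians were equal within 1 CPM. The ratio was −0.47 in the first and 0.11 in the second runs, and −0.26 to −0.09 when single cells were left out.

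**Figure D3:**
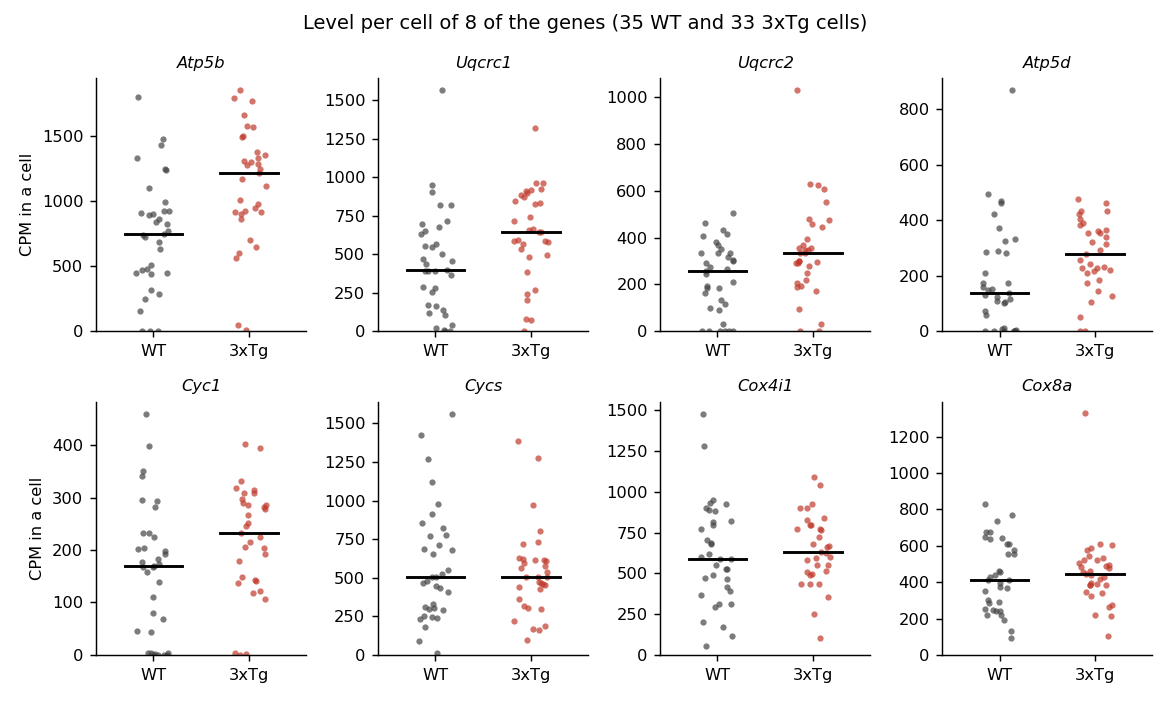
Level of 8 genes per cell (y axes, CPM, linear from 0) in 35 WT and 33 3xTg cells. Points are cells and black lines are medians. The medians of Atp5b are 744 and 1219 CPM in WT and 3xTg, those of Cycs 503 and 504 CPM, and the ranges of the genotypes overlap in every panel.

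Over all cells, complex IV had the smallest median log2 ratio of the complexes, 0.04 over 11 expressed genes, 8 of them above 0. Its summed levels were 4142 CPM in 3xTg and 4032 CPM in WT. The pairs of runs went in opposite directions, with a complex IV median of −0.12 in the first pair and 0.23 in the second. The value of 0.04 therefore does not show that complex IV was alike in the genotypes. Cox4i1, which binds ATP as a brake on the enzyme, had cells from 105 through 632 to 1089 CPM in 3xTg and from 55 through 586 to 1478 CPM in WT. Its counts were 24151 (23847 to 24458) and 21449 (21163 to 21738), a ratio of 0.06, and −0.16 and 0.38 between the runs. Cox8a, the widely expressed isoform of subunit 8, had 16930 (16676 to 17187) and 15318 (15076 to 15562) counts, medians of 444 and 415 CPM and a ratio of 0.03. For both genes the medians of the genotypes lay close together within wide ranges.

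Cox6b1, which joins the monomers of the dimer and faces cytochrome c, had 14588 (14352 to 14827) and 15018 (14779 to 15260.1) counts, medians of 408 and 352 CPM and a ratio of −0.15 (−0.45 and 0.26 between the runs). Its summed CPM was thus lower and its median cell higher in 3xTg. Cox5a was the highest of the complex at 0.31, and Cox5b, Cox7a2, Cox6c, Cox7a2l and Cox6a1 lay between 0.02 and 0.11. Cox7b and Cox7c were at −0.10 and −0.13. Reads of Cox7c may be shared with its pseudogene Gm10012, which had 3679 counts in 68 cells, the only one of 59 pseudogenes of these families with a count. Its level was 50.5 CPM in 3xTg and 53.6 CPM in WT.

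Between the first runs, 18 of 36 members were above 0 (50.0%), beside 58.5% of all expressed genes, and 2 were past 1.5-fold upwards, Atp5b and Uqcrc2, beside 20.7%. No member was past 1.5-fold downwards, beside 11.6%. Between the second runs, 34 of 36 were above 0 (94.4%), beside 44.3%. There 5 were past 1.5-fold upwards (13.9%), Atp5b, Atp5d, Atp5g2, Cox5a and Uqcrc1, beside 13.7%, and 0 downwards, beside 30.1%. Atp5g2, counted among the 34 and the 5, had passed the expression filter through 3xTg cells alone. In both pairs of runs 16 of 36 members were higher in 3xTg (44.4%), beside 27.2% of all genes. None was lower in both, and 18 were lower between the first and higher between the second. The shares of all genes with these other patterns are not given here. The median member stood at 0.01 in the first and 0.27 in the second runs, and the median of all genes at 0.12 and −0.11.

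**Figure D4:**
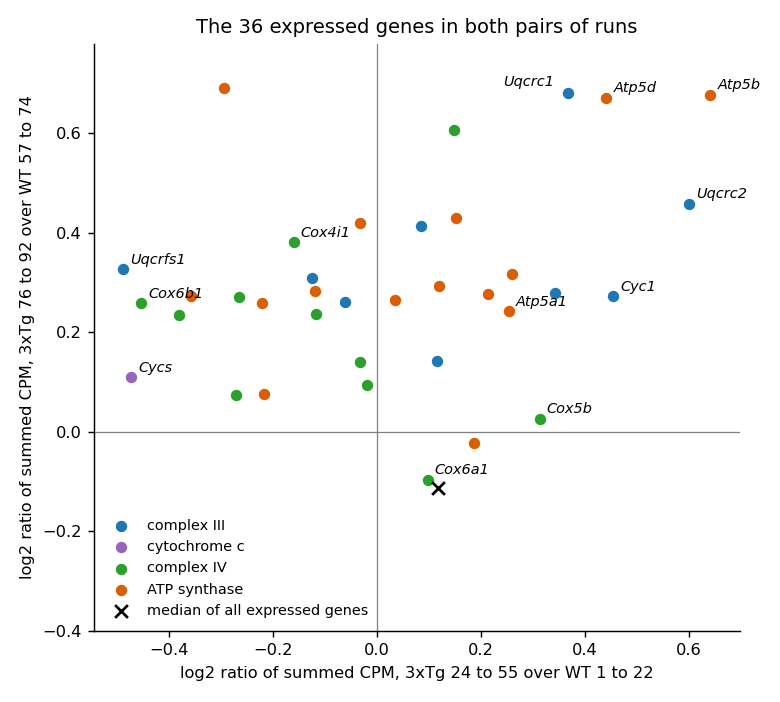
Log2 ratio of summed CPM, 3xTg over WT, of the 36 expressed genes between the first runs (x axis) and the second runs (y axis), which share no cells. The cross is the median of all expressed genes (0.12 and −0.11). Atp5b (0.64 and 0.68) is at the upper right, and 34 of 36 genes lie above 0 on the y axis.

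The genes with longer coding sequences tended to the higher ratios. This was looked at after the ratios were seen. Across the 36 members Spearman's correlation between coding length and the log2 ratio was 0.42 (0.40 between the first and 0.47 between the second runs), beside −0.14 across 3687 expressed genes with a length. The 9 members with over 600 coding bases had a median ratio of 0.30 and the 27 shorter ones 0.09. The longer ones were Atp5a1, Atp5b, Uqcrc1, Uqcrc2, Cyc1, Atp5c1, Uqcrfs1, Atp5f1 and Atp5o. Genes of one sample are not independent replicates, and the members differ in length and in function at once.

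Levels of different genes were compared per kilobase of transcript, as summed CPM over all cells divided by the median length of the RefSeq-matched GENCODE transcripts. Complex IV stood highest, with a median of 619 CPM per kilobase over 11 genes, beside 345 over the 9 of complex III and 298 over the 15 of ATP synthase. Cox4i1 (854), Cox8a (829) and Cox6b1 (677) led, and Atp5g2 (116), Cyc1 (133) and Uqcrc2 (157) were lowest among expressed members. Within a complex the expressed members spanned 3.42-fold in complex IV, 4.30-fold in complex III and 5.54-fold in ATP synthase. Atp5g1, Cycs and Uqcrq have long or varied annotated transcripts, so that their values per kilobase (234, 182 and 188) depend on the transcript taken.

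The members varied together across cells. The summed level of complex III had a Spearman's correlation of 0.63 with that of complex IV and 0.77 with that of ATP synthase over the 68 cells, and complex IV had 0.78 with ATP synthase. These values share each cell's total count and are given as descriptions. Against the sum of the other members, single genes had a median correlation of 0.55, beside −0.07 for 3952 expressed genes outside the rule. Atp5j (0.76), Cox6b1 (0.73) and Cox6c (0.70) followed the others most, and Uqcrfs1 (0.30), Atp5e (0.33) and Atp5d (0.34) least. Atp5b had 0.50, Cycs 0.50 and Cyc1 0.35.

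Outside the rule, the 10 expressed genes most like the summed level were Atpif1 (0.77), Bex2, Hsp90ab1, Tmsb10, Ndufa8, Ndufa4, Gap43, Tceb2, Ndufv2 and Hspa8 (0.70). Atpif1 encodes the inhibitor of ATP synthase, Ndufa4 a subunit now placed in complex IV, and Ndufa8 and Ndufv2 are subunits of complex I. The summed level of 36 complex I genes had a correlation of 0.87 with that of the members.

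**Figure D5:**
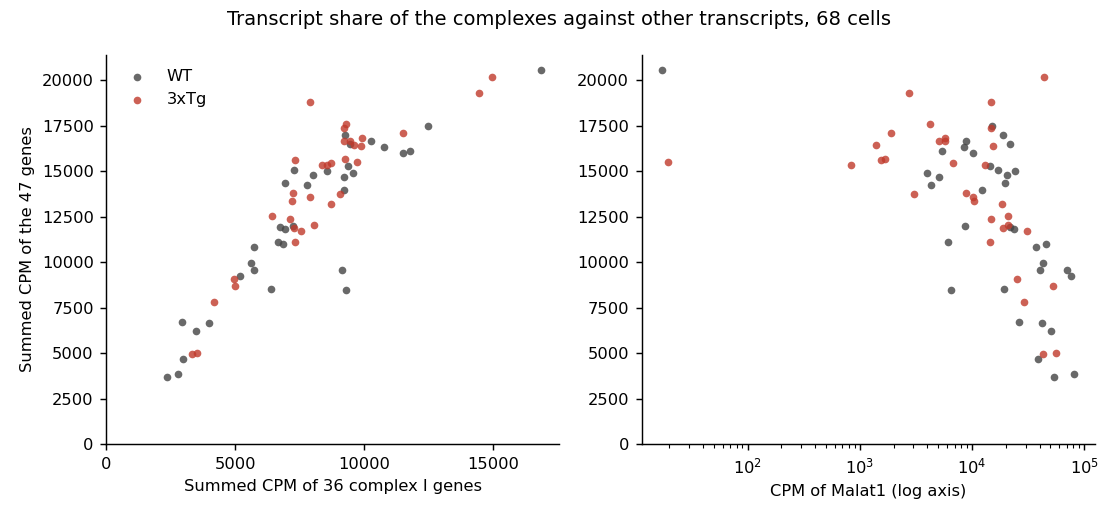
Summed level of the 47 genes (y axes, CPM) against the summed level of 36 complex I genes (left, linear axis) and the level of Malat1 (right, log axis) in 68 cells, WT in dark grey and 3xTg in red. The level rises with complex I (correlation 0.87) and is lower where Malat1 is high (correlation −0.66).

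The level of the members also moved with measures of the libraries. Spearman's correlation was −0.66 with Malat1, a long noncoding RNA kept in the nucleus, 0.57 with the total count and −0.18 with the number of genes detected. It was −0.67 with the summed GABA neuron markers (Gad1, Gad2, Slc32a1 and Pvalb, which together reached at most 267 CPM), −0.38 with oligodendrocyte markers and 0.46 with DA markers. Malat1 had a median of 13155 CPM in 3xTg and 19704 CPM in WT, and 10399, 13938, 10161 and 23449.5 CPM in 3xTg 24 to 55, 3xTg 76 to 92, WT 1 to 22 and WT 57 to 74. The part of these measures in the genotype values was not tested.

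All 36 expressed members had a count in 24 3xTg cells of 33 and in 16 WT cells of 35. The fewest, 27, were found in WT 11, a cell with 3886 genes detected and with microglial and oligodendrocyte markers at 2332 and 2540 CPM. A count in every cell was found for 23 of 36 members in 3xTg (63.9%, beside 30% of all expressed genes) and for 12 in WT (33.3%, beside 24.1%). The 3xTg cells also had the higher median total count and number of genes detected (8629 against 7603), whose part in this was not tested.

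Complex I and II and ribosomal genes gave a frame for these values. The median log2 ratio was 0.09 for 36 complex I genes, 0.13 for 4 complex II genes, 0.11 for 44 expressed genes of mitochondrial ribosomal proteins and 0.02 for 81 of cytosolic ribosomal proteins. Between the first runs these medians were −0.06, −0.08, −0.05 and −0.05, and between the second 0.30, 0.47, 0.29 and 0.03. The pattern of a higher ratio between the second runs was hence found in complexes I and II and in mitochondrial ribosomal proteins as well.

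Of 53 further genes of the pathway, 47 were in the table and 16 were expressed, with 8 ratios above 0, 1 past 1.5-fold upwards and 1 downwards. Among all expressed genes the shares were 47.9%, 9.88% and 13%. The 6 mitochondrially encoded subunits were not analysed here. Surf1, an assembly factor of complex IV, was at 145.5 CPM in 3xTg against 85.4 CPM in WT, a log2 ratio of 0.77 (1.38 and 0.44 between the runs), read in 31 of 33 and 25 of 35 cells. Lrpprc, which stabilises mitochondrial mRNAs, had a ratio of −0.71, but its mean over cells relative to the median gene was 0.24 and its ratios between runs were −1.24 and 0.11. Atpif1 and Ndufa4 had 0.23 and 0.24, and Usmg5, a membrane part of ATP synthase, −0.23.

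Of 23 pathway genes under the filter with counts in both genotypes, 4 passed 1.5-fold upwards (17.4%) and 6 downwards (26.1%) with both measures on the same side. Among all 11380 such genes of the table the shares were 15% and 30.7%, and of 5 such members 0 and 1 passed. The latter was Cox6b2 (−1.72), which stood at 0.45 without WT 20, the cell that held 96 of its 122 WT counts. Upwards these were Cox18 (2.07, counts in 21 3xTg and 8 WT cells), Lyrm7 (1.86), Cox10 (0.66) and Ppargc1b (5.39, with 408 counts from 9 3xTg cells and 9 from 5 WT cells, and 4.48 without 3xTg 31, which held 196 counts). Downwards they were Gabpa (−3.95), Cox15 (−2.17), Esrra (−1.05), Uqcc3 (−1.01), Bcs1l (−0.80) and Nrf1 (−0.63). Cox10, Cox15 and Cox18 serve complex IV assembly, Bcs1l, Lyrm7 and Uqcc3 that of complex III, and Nrf1, Gabpa, Esrra and Ppargc1b are regulators of nuclear genes for mitochondria. Without the cell with the most counts of the gene, Nrf1 was at 0.32 (without WT 63), Bcs1l at −0.32 and Esrra at −0.49 (both without WT 6), all short of 1.5-fold, and the other 7 kept their side past 1.5-fold. Cox10 was at 1.247 in the first and 0.08 in the second runs. The ratio of Nrf1 was 0.82 in the first and −1.13 in the second runs.

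Since Nrf1 and Gabpa encode factors known to bind promoters of respiratory genes, promoter letters were read from RefSeq (GRCm38.p6), with 250 bases before and 50 after each start, for 35 members that had an entry. The letters GCATGCGC, a core of NRF1 sites, were found on either strand in 7 of 35 members (20.0%), beside 3.05% of all 27025 genes. Among expressed members they were in 7 of 29 (24.1%), beside 6.47% of 3151 expressed genes. CCGGAAG, a core of sites of ETS factors such as GABP, was in 10 of 35 (28.6%), beside 9.93%. Among expressed members it was in 10 of 29 (34.5%), beside 20.3%. AAGATGGC, a core of YY1 sites, was in 4 of 35 (11.4%), beside 3.19%, and in 3 of 29 expressed members (10.3%), beside 5.52%. CCGGAAG and AAGATGGC can overlap, since AAG ends the one and begins the other. The 7 members with the NRF1 letters were Atp5g2, Atp5k, Atp5l, Cox6a1, Cycs, Uqcr11 and Uqcrc1. A match is a description of the letters and not of binding.

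The 250 bases before the start are given for Atp5b, Atp5d and Uqcrc1, which with Uqcrc2 (no entry matched) had the 4 highest ratios, and for Cycs, which had a ratio below 0, from 5′ to 3′ on the strand of the gene and with any motif above in capitals. They lie at chr10:128083057-128083306 (plus), chr10:80142025-80142274 (plus, before the first of 2 starts), chr9:108936398-108936647 (plus) and chr6:50566570-50566819 (minus).
Atp5b: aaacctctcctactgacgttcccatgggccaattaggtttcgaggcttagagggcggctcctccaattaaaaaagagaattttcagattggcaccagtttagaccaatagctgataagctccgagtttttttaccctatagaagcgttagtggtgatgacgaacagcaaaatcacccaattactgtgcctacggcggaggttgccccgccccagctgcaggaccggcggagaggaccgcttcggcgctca
Atp5d: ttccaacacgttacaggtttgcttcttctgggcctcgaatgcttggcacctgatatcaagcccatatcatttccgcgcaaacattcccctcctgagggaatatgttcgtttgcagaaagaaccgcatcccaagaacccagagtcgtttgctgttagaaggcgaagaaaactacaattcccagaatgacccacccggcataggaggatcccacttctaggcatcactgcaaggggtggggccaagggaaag
Uqcrc1: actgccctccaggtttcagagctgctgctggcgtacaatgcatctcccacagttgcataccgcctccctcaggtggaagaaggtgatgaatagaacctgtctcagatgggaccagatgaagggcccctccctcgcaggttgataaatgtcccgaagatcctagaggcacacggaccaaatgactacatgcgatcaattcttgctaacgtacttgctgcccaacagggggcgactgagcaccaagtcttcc
Cycs: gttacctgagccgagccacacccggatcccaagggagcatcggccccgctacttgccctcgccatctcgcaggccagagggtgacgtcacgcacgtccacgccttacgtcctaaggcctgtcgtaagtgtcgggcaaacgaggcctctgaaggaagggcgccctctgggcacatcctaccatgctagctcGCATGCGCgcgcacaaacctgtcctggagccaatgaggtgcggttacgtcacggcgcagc

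Of these 4 stretches, only that of Cycs held one of the motifs, the NRF1 letters, beginning 60 bases before the start. The NRF1 letters of Uqcrc1 did not lie wholly within these 250 bases. In the stretches before the start of Atp5b and Atp5d none of the 3 motifs was found, and nothing follows from this for any factor.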

How the data were processed

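The members and gene lists were chosen with earlier results of these data known. The authors deposited estimated counts per gene for 68 single neurons. Per the study's methods and the labels, RNA was amplified with 28 PCR cycles, read from both ends at 100 bases, aligned to RefSeq transcripts of mm10 with Strand NGS 4.0 at 90% identity or more, and cleared of duplicate reads. Of the deposited counts above 0, 55.3% were not whole (tolerance 0.001), and 29 of the 36 expressed members were not whole in over 50% of their cells. How shared reads were divided is not given in the sources used here. The 68 normalized columns, shifted per gene by an unstated amount, were not used, and the submitters' processing notes name DESeq2.

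Counts were rounded and summed per genotype, and the log2 ratio of the CPM was taken. Median-of-ratios size factors (787 genes) gave the mean over cells of log2(count + 1). Sums have Poisson, shares Clopper-Pearson and ratios conditional binomial intervals, all exact and at 95%, and the limit for a count of 0 is 3 counts of the total. No test was made, since each genotype is 1 sample, and totals of 492505 to 1678624 counts per cell set the counting precision. The calculations were tested on simulated data.

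Named were the 3 members of each complex with the highest CPM, Cyc1, Cycs, members past 1.5-fold with both measures on the same side, isoform sets, members with no count, and pathway genes past 1.5-fold with both measures on the same side. Alternatives were TMM and DESeq2 scaling, other means and pseudocounts, filters, folds, thinned cells, cells without Pvalb, Tmem119, P2ry12 and Aldh1l1, whole-count members, runs and each cell left out. Leaving out cells with fewer than 5000 genes detected, or WT 94 to 96, or the cell with the most counts of Cox6b2 or a pathway gene under the filter, was added after the data were seen. Python 3.11.15 (numpy 2.4.6, scipy 1.17.1, pandas 2.3.3, matplotlib 3.10.9), R 4.3.3 and edgeR 4.0.16 were used. A further allele of the 3xTg line is not reported here.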

Additional observations from a re-analysis of the deposited data

How the results depend on the processing

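The median log2 ratio of all expressed genes (−0.03) was 0.087 with TMM and 0.093 with DESeq2 factors, and 0.12 in the first and −0.11 in the second runs. The median log2 ratio of the expressed members (0.10) stayed above 0 under each alternative that was run, but lay below that of all genes in the first runs. It was 0.22 with TMM and 0.19 with DESeq2 factors, 0.15 as a mean over cells of CPM, 0.55 as a mean over cells of log2 values (0.47 for the median gene), 0.015 and 0.16 relative to the median gene at pseudocounts of 0.1 and 10, 0.031 without the 5 3xTg and 5 WT cells with a count of Pvalb, Tmem119 or P2ry12, 0.0079 in the first and 0.27 in the second runs, 0.035 over the 3 members with whole counts, 0.17 without cells with fewer than 5000 genes detected, and 0.060 to 0.15 without single cells. The log2 ratio of the total (0.16) under the same scalings was 0.29, 0.25, 0.20 and 0.36, and −0.11 relative to the median gene (−0.22 and 0.086 at pseudocounts of 0.1 and 10). It was 0.15 in thinned cells, 0.12 without these cells, 0.037 and 0.32 in the first and second runs, −0.054 over members with whole counts, 0.18 without cells with fewer than 5000 genes, and 0.14 to 0.20 without single cells. Members past 1.5-fold upwards (1) numbered 4 with TMM and 3 with DESeq2 factors, 15 and 8 as means over cells without and with the median gene subtracted, 11 and 7 at pseudocounts of 0.1 and 10, 2 in thinned cells, 2 and 5 in the runs, 0 with whole counts, 6 at a lower fold limit and 0 at 2-fold, 0 without cells with fewer than 5000 genes, and 0 to 3 without single cells (0 without WT 6, 20, 69 or 72, 3 without WT 8, and 2 without 3xTg 26, 38 or 43 or WT 10, 11, 14, 18, 21, 59, 66 or 73). Members past 1.5-fold downwards (0) numbered 1 with no filter, Cox6b2 (40 counts in 3xTg and 122 in WT, with a ratio of −1.72 that was 0.45 without WT 20), and 0 without any single cell. Atp5b ranged from 0.52 to 1.19 and lost its call without the cells with Pvalb, Tmem119 or P2ry12 (0.52), where Atp5d (0.60) was the member called, and without cells with fewer than 5000 genes (0.53). There Uqcrc2 and Cyc1 were both at 0.25. Without WT 7 the count was 1, but Atp5b was at 0.57. The causes were not tested. The share of all expressed genes past 1.5-fold is given above for all cells and for both pairs of runs only. The other counts have no such share beside them and are not read as a result about the members. The 15 came from means over cells in which the median gene itself stood at 0.47, beside a 1.5-fold limit of 0.58. No paired analysis was possible because the label numbers are not shared between the genotypes.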

Other observations

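The 3 cells WT 94 to 96 entered neither pair of runs. Their summed member levels were 16479.9, 9213 and 9577 CPM, with Malat1 at 21928, 75867 and 40689 CPM and 6340, 8124 and 4405 genes detected. Cycs was at 10.2 CPM in WT 96, which was also the lowest of all 68 cells. Without these 3 cells the median ratio of the members was 0.10.

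The cell with the highest summed level was WT 20, at 20557 CPM, with Malat1 at 17.3 CPM, the lowest of all cells, and complex I at 16845 CPM, the highest. The lowest was WT 65, at 3661 CPM, with Malat1 at 54246 CPM. In 3xTg 42 the summed level was the highest of its genotype, 20154 CPM, although its Malat1 was at 44169 CPM.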
